A study of Mus musculus with 6 samples.

Results

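The genes described here encode subunits of the nicotinic acetylcholine receptor and were picked by name around Chrna2, the subunit gene whose level stood apart in inguinal fat of mice with a brown fat deletion of Yy1. They are the 10 genes Chrna1, Chrna2, Chrna4, Chrna7, Chrnb1, Chrnb2, Chrnb4, Chrnd, Chrne and Chrng, read by 13 of the 22690 probe sets on the array, and all 10 were among the 12393 genes tested. The YY1bKO mice carried YY1flox/flox together with Ucp1Cre, a Cre recombinase under Ucp1 regulatory sequences that act mainly in thermogenic adipocytes. Control mice were YY1flox/flox without the Cre. All animals were 8 weeks old, on a mixed C57BL6 and 129 background, and had eaten a high fat diet over 2 weeks. Subcutaneous white fat, labelled IWAT and read here as inguinal, gave 3 arrays per group. No mice with the Cre alone are among the labelled groups, and the labels do not say whether replicates came from separate animals, so the errors given here measure the spread between these samples. The samples were read on Affymetrix arrays. Chrna2 was chosen for its difference between these groups, and the grouping of the muscle subunits came from their presumed relation to muscle content in YY1bKO replicate 1. The differences of the 10 genes are therefore given as a description, with no test, and their intervals show the spread between arrays.

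Nicotinic receptors are cation channels that open when acetylcholine binds, and each is a ring of homologous subunits around a central pore. The muscle receptor, which carries the signal from motor nerve to muscle fibre, is built of the alpha1, beta1 and delta subunits (Chrna1, Chrnb1, Chrnd) with either the gamma subunit of fetal muscle (Chrng) or the epsilon subunit of adult muscle (Chrne). Most neuronal receptors combine alpha subunits such as alpha2 or alpha4 with beta2 or beta4, while alpha7 can form channels by itself. In mouse subcutaneous fat, CHRNA2 is known as a receptor of beige adipocytes that responds to acetylcholine released by resident immune cells.

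Yy1, the deleted gene, had intensities of 1118.1, 1357.5 and 1179.3 in YY1bKO replicates 1, 2 and 3, against 1287.5, 1469.7 and 1568.2 in control replicates 1, 2 and 3 (limma log2 difference -0.24, adjusted p = 0.575). Over the 4 probe sets of Yy1 the difference ran from -0.24, that of the probe set shown, to -0.069. Whether its probe sets lie in the deleted part is not known here. The arrays differed in tissue content. The summed intensity of 28 skeletal muscle genes was 8861.6 in YY1bKO replicate 1, against 1706.4 to 3573.5 in the other 5 arrays, and that of 18 mammary and skin epithelium genes was 17311.9 in control replicate 2, against 588.0 to 931.1 elsewhere. B cell genes summed to 371.6 in YY1bKO replicate 1 and 404.2 in control replicate 1, against 2071 to 11438.3 in the rest. In bulk samples such as these, fewer cells of a type and less RNA per cell cannot be told apart.

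Chrna2, the alpha2 subunit, was the member with the largest difference, and it was higher in YY1bKO fat. It had intensities of 56.7, 49.6 and 57.4 in YY1bKO replicates 1, 2 and 3, against 23.9, 22.8 and 24 in control replicates 1, 2 and 3. The groups did not overlap, and the lowest YY1bKO array was more than 2 times the highest control array. The mean intensity was 54.6 ± 4.32 in YY1bKO and 23.6 ± 0.67 in control fat (SD, n = 3 each), a ratio of 2.32. On the scale of log2(intensity + 1), which understates the change of dim genes, the difference was 1.17 ± 0.10 (SE; 95% confidence interval 0.94 to 1.41). That difference ranked 28th from the top among the 12393 genes. The level itself was modest. All 3 control arrays lay below their own lower quartile of intensities (29.9 to 31.7 over the 6 arrays), so the control level may be close to the background of the array and the ratio is not exact. In YY1bKO the probe set lay on average at the 35.6th percentile of its array, against the 19.9th in controls.

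Among the members 2 genes, Chrna2 and Chrnb1, were higher without overlap of the groups and 0 lower, where 11.5% of all genes were higher and 5% lower in that way. Since the same contrast chose the members, nothing is read from this count. The plot of intensities by subunit shows the separation of Chrna2 beside the other members.

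**Figure D1:**
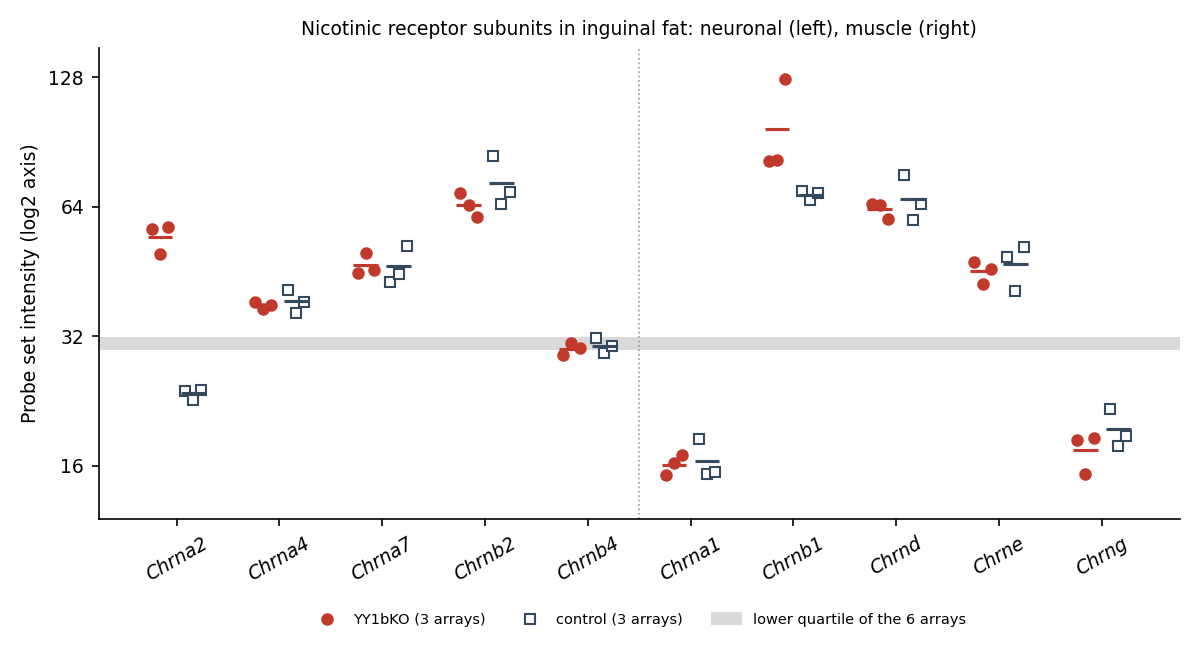
Probe set intensity (log2 axis) of the 10 subunit genes in each array, YY1bKO left and control right for each gene, with a line at the group mean and a grey band for the lower quartile of the 6 arrays (29.9 to 31.7). Chrna2 sits at 49.6 to 57.4 in YY1bKO and at 22.8 to 24 in control arrays, and Chrnb1 at 81.6 to 126.9 and 66.5 to 69.6, while the groups overlap for the other 8 genes.

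The Chrna2 difference was much the same whichever array was left out. It was 1.15 without YY1bKO replicate 1, the array rich in muscle transcripts, 1.15 without control replicate 2, the array rich in epithelial transcripts, and 1.12 without both. Of 13 thermogenic adipocyte markers, all had a higher mean in YY1bKO, 9 without overlap of the groups (11.5% of all genes were higher in that way). By limma 3 of the 13 passed an adjusted p of 0.05 (0.0323% of all genes were higher at that threshold and 0% lower). As the marker lists were drawn up with earlier results of these data known, nothing is read from their counts. The groups overlapped for Ppara, Cidea, Plin5 and Dio2. Cidea, a lipid droplet protein, was highest of all arrays in control replicate 2, with a log2 value of 11.01 against 10.72 to 10.92 in YY1bKO arrays. The summed intensity of the 13 genes was 13335.9 to 14072.2 in YY1bKO arrays and 3330.9 to 5199.9 in control arrays, and none of the list's genes lay below the lower quartile on every array. Ucp1, the uncoupling protein, had intensities of 1610.2, 2062.0 and 1929.2 in YY1bKO and 51.5, 50.0 and 42.1 in control replicates. Of 12 white adipocyte markers 10 had a higher mean in YY1bKO, 4 without overlap (Nnat, Agt, Pnpla2 and Lipe, with log2 differences of 0.83 to 1.00), beside 11.5% of all genes. By limma 0 of the 12 markers passed an adjusted p of 0.05, while 4 passed an unadjusted p of 0.05 (8.43% of all genes were higher at that level). Their summed intensity was 115829.8 to 125687.3 in YY1bKO arrays and 95904.4 to 127293.5 in control arrays. The part of thermogenic or white adipocytes in the Chrna2 difference was not tested.

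The genes whose pattern over the 6 arrays was nearest to that of Chrna2 were sought by the root mean square distance of log2 values after the mean of each gene was subtracted. They were Eci1 (distance 0.091), an enoyl-CoA isomerase of mitochondrial fatty acid oxidation, Fbxo21 (0.11), a ubiquitin ligase subunit, Eci3 (0.12), another enoyl-CoA isomerase, Acaa2 (0.13), a mitochondrial thiolase, and Acsm3 (0.14), a medium chain acyl-CoA synthetase. Eci1 had intensities of 4057.1, 3386.3 and 3553.4 in YY1bKO replicates 1 to 3, against 1872.6, 1610.3 and 1685.9 in control replicates 1 to 3. In both genes YY1bKO replicate 2 was the lowest of its group and control replicate 2 the lowest of all arrays. The log2 differences of these 5 genes lay between 0.96 (Fbxo21) and 1.32 (Acsm3), so likeness here means a step of nearly the same size between the groups. The plot of centred values shows that step for each of them.

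**Figure D2:**
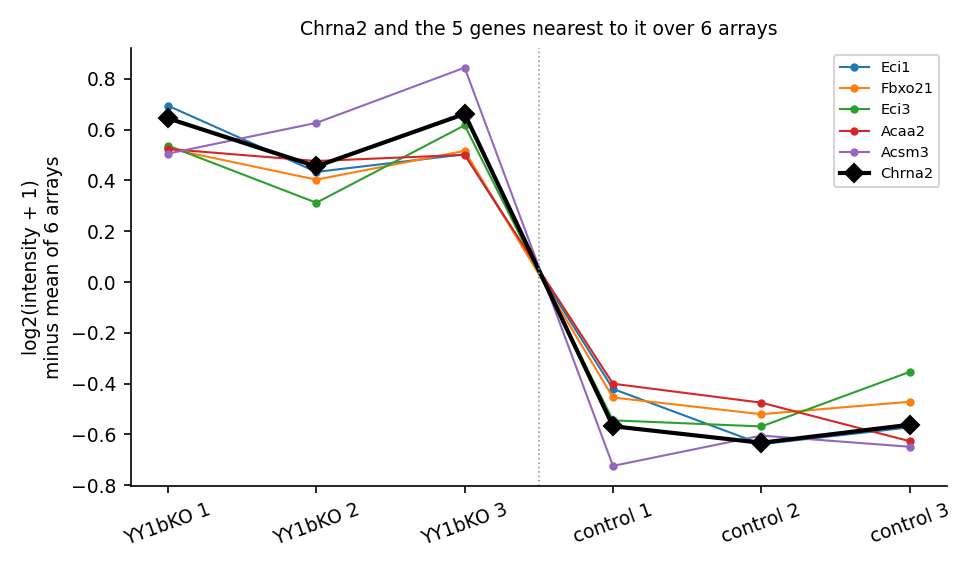
log2(intensity + 1) minus the mean of the 6 arrays, for Chrna2 (black diamonds) and the 5 genes nearest to it, over YY1bKO replicates 1 to 3 and control replicates 1 to 3. All 6 lines are above 0 in the YY1bKO arrays and below 0 in the control arrays, with distances to Chrna2 of 0.091 to 0.14.

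The genes next to Chrna2 in the RefSeq gene order, picked by position after the level of Chrna2 was known, had no difference past an adjusted p of 0.05. Of all genes 0.0323% passed that threshold, so little is read from this. Ephx2, the soluble epoxide hydrolase, had intensities of 4595.7, 4053.8 and 4282.1 in YY1bKO and 2490.8, 4401.0 and 2168.1 in control replicates. Control replicate 2 lay within the YY1bKO range, and the log2 difference of 0.58 ± 0.27 (SE) did not pass (limma adjusted p = 0.528). Ptk2b, a calcium-dependent tyrosine kinase on the other side, had a log2 difference of -0.076 ± 0.37 (adjusted p = 0.961). The next genes outward were Adam2, a sperm surface protein (0.43, limma adjusted p = 0.392), and Trim35, a ubiquitin ligase (0.049, adjusted p = 0.928). Adam2 had intensities of 22.7 to 30.8 in YY1bKO and 16.6 to 20 in control arrays. It was thus higher without overlap of the groups, as were 11.5% of all genes.

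The other neuronal subunits showed no comparable difference. Chrna4, the alpha4 subunit of the main nicotinic receptor of the brain, had intensities of 38.5, 37.0 and 37.8 in YY1bKO and 41.1, 36.2 and 38.5 in control replicates. Its groups overlapped, and the log2 difference was -0.029 ± 0.088 (SE; 95% confidence interval -0.24 to 0.19). The second Chrna4 probe set, dimmer than the lower quartile on 5 of 6 arrays, gave 0.057 ± 0.11. Chrnb2, the beta2 subunit that partners alpha4, had 69.0, 64.5 and 60.5 in YY1bKO and 83.8, 65.0 and 69.2 in control replicates, with control replicate 1 the highest of all. Its difference was -0.16 ± 0.12 (95% confidence interval -0.46 to 0.14).

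Chrnb4, the beta4 subunit of autonomic ganglia, had 28.9, 30.8 and 30 in YY1bKO and 31.7, 29.2 and 30.4 in control replicates. These values straddled the lower quartile, and the difference was -0.024 ± 0.084 (95% confidence interval -0.23 to 0.18). Chrna7, the alpha7 subunit known in macrophages as well as neurons, had 44.9, 50.1 and 45.7 in YY1bKO and 42.8, 44.7 and 52.0 in control replicates, a difference of 0.015 ± 0.11 (95% confidence interval -0.25 to 0.28). Its highest array in each group was the array with the most B cell RNA of that group, YY1bKO replicate 2 (summed B cell intensity 5565.2) and control replicate 3 (11438.3). The part of lymphoid tissue in these values was not tested. Over Chrna4, Chrna7, Chrnb2 and Chrnb4 the median difference was -0.027, with an estimate above 0 for 1 of 4, beside a median of 0.0046 for all genes. Its sign turned under quantile normalization (0.021) and with the medians of dim probe sets subtracted (0.0020). The estimate of Chrna2, chosen for its difference, lay above the interval of each of these 4 genes, which is a description and no test. For Chrnb4, so close to the lower quartile, a change of the transcript may not be visible in full.

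**Figure D3:**
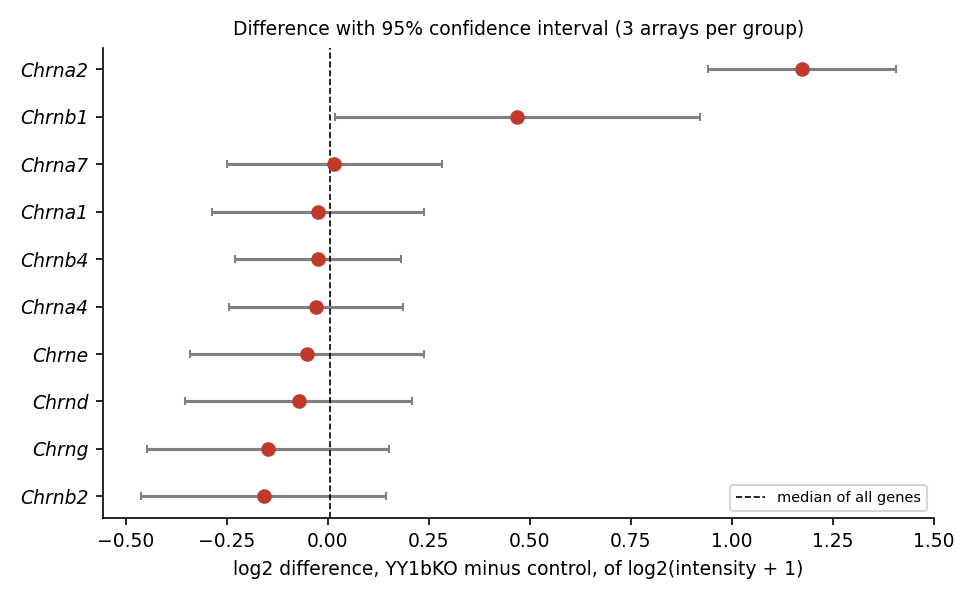
Log2 difference, YY1bKO minus control, of log2(intensity + 1) for each subunit gene, with its 95% confidence interval from limma (3 arrays per group), as a description with no test, and a dashed line at the median of all genes (0.0046). Chrna2 lies at 1.17 and Chrnb1 at 0.47, and the other 8 genes lie between -0.16 and 0.015 with intervals that include 0.

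The muscle subunits had been grouped for their presumed relation to muscle content in YY1bKO replicate 1. In that array 14 of the 28 skeletal muscle genes stood more than 1 log2 unit above the mean of YY1bKO replicates 2 and 3, and the median excess was 1.09. Myh4, the fast myosin heavy chain IIb, had a log2 value of 8.83 there, against 3.47 and 3.38 in YY1bKO replicates 2 and 3. Ckm, muscle creatine kinase, had 8.81 there, against 5.94 and 5.78, and the excess of Tnnc2, fast troponin C, was 4.68. These 3 genes, from the high end of the list, were picked after their values were seen. At the low end Tnnt1 and Myh7, slow fibre genes, had an excess of -0.12 and -0.086. Both were dim, so an excess may not be visible. Their log2 values in YY1bKO replicates 1, 2 and 3 were 4.88, 4.99 and 5.01 (Tnnt1) and 3.94, 4.05 and 4.01 (Myh7). The excess of the 5 muscle subunits in the same array ran from -0.32 (Chrnb1) to 0.12 (Chrng), with a median of 0.064. Neuromuscular junction organisers, the genes that cluster the receptor under the nerve ending, had a median of 0.019 and a highest value of 0.35. Chrna1 and Chrng lay below the lower quartile on every array, so a change of theirs may not be visible. The part of muscle content in the levels of the muscle subunits was not tested.

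**Figure D4:**
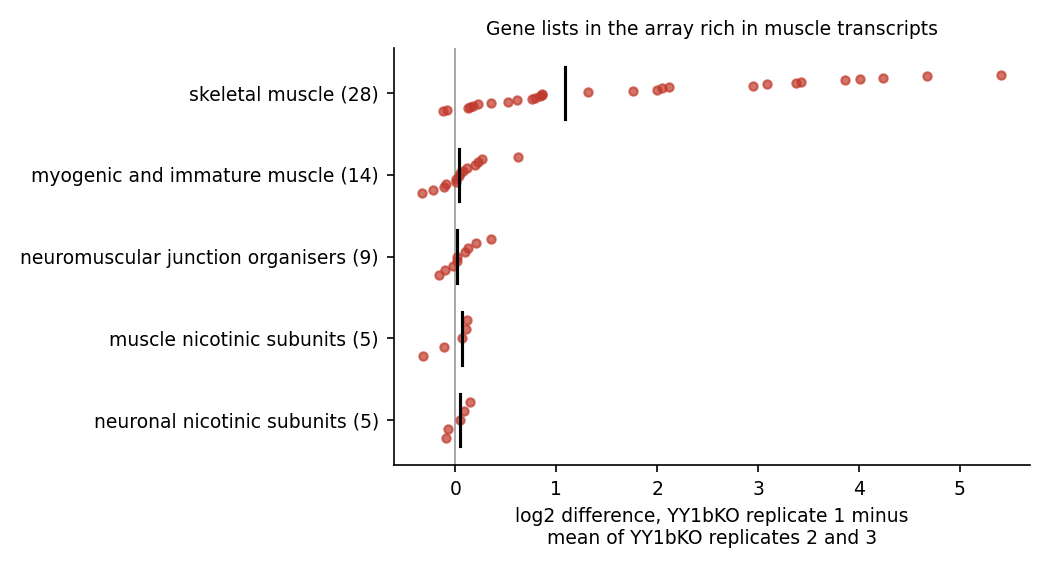
Log2 difference between YY1bKO replicate 1 and the mean of YY1bKO replicates 2 and 3, 1 point per gene, for the skeletal muscle list and 4 lists of muscle regulators and receptor subunits, with a black line at the median. Skeletal muscle genes reach 5.40 with a median of 1.09, while the muscle subunits lie between -0.32 and 0.12.

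Chrna1, the alpha1 subunit that binds acetylcholine in muscle, had intensities of 15.2, 16.2 and 16.9 in YY1bKO and 18.5, 15.3 and 15.5 in control replicates. All 6 values lay below the lower quartile of their arrays, and the log2 difference was -0.024 ± 0.11 (SE; 95% confidence interval -0.29 to 0.24). Chrng, the fetal gamma subunit, had 18.4, 15.3 and 18.6 in YY1bKO and 21.7, 17.8 and 18.8 in control replicates, also below the lower quartile throughout. Its 3 probe sets gave differences of -0.15, -0.064 and 0.059. At such levels the probe sets may read background, and a small change of the transcript could not be seen.

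Chrnd, the delta subunit, had 65.1, 64.5 and 60.0 in YY1bKO and 75.7, 59.5 and 65.1 in control replicates, a difference of -0.072 ± 0.12 (95% confidence interval -0.35 to 0.21). Chrne, the adult epsilon subunit, had 47.6, 42.3 and 45.9 in YY1bKO and 49.0, 40.8 and 51.6 in control replicates, a difference of -0.052 ± 0.12 (95% confidence interval -0.34 to 0.24). In both genes the YY1bKO arrays lay inside the range of the controls. Chrnd and Chrng are next to each other in the RefSeq gene order.

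Chrnb1, the beta1 subunit, was the 1 muscle subunit whose groups did not overlap. Its intensities were 81.6, 82.4 and 126.9 in YY1bKO replicates 1, 2 and 3, against 69.6, 66.5 and 68.8 in control replicates 1, 2 and 3. All 3 YY1bKO arrays were above all 3 controls, and replicate 3 was far above the other YY1bKO arrays. The difference was 0.47 ± 0.19 (SE; 95% confidence interval 0.016 to 0.92), and without YY1bKO replicate 3 it was 0.26. Its interval overlapped those of the other muscle subunits, and the difference between them was not tested. Acta1, skeletal alpha actin, had 1569.2, 524.3 and 1572.0 in YY1bKO replicates and 312.7, 181.0 and 297.7 in control replicates. It was thus as high in YY1bKO replicate 3 as in YY1bKO replicate 1. For the 28 skeletal muscle genes as a set, Acta1 among them, the 2 measures differed. Their mean log2 value, with the mean of each gene subtracted, was 1.44 in YY1bKO replicate 1. In YY1bKO replicate 3 that mean was -0.38, the lowest of all arrays. Their summed intensity, in which bright genes such as Acta1 weigh most, was 3573.5 in YY1bKO replicate 3. That sum was 8861.6 in YY1bKO replicate 1, 2437.7 in YY1bKO replicate 2 and 1706.4 to 2504.9 in control arrays. The part of muscle content in the Chrnb1 difference was not tested. Over the 5 muscle subunits the median difference was -0.052, with an estimate above 0 for Chrnb1 alone, and without control replicate 1 that median was 0.021.

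The 250 bases before the start of the muscle subunit genes are shown because their products are parts of the fetal or the adult muscle receptor (RefSeq, GRCm38.p6). Of the 10 genes 8 matched the promoter table, 4 of them muscle subunits. Chrna2 and Chrnd were not matched. Each line runs 5′ to 3′ on the strand of the gene and ends at the base before the start. Capitals mark CAGCTG, a form of the E-box bound by myogenic factors such as MyoD, and the N-box TTCCGG, an ETS-type core known from synaptic expression of receptor subunits in rodent muscle, each searched on both strands.
Chrnb1 (chr11:69795938-69796187, minus strand): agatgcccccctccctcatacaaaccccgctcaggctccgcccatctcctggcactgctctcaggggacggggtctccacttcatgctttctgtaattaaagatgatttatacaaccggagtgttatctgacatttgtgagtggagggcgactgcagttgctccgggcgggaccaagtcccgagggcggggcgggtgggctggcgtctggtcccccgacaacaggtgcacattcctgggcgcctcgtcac
Chrna1 (chr2:73580339-73580588, minus strand): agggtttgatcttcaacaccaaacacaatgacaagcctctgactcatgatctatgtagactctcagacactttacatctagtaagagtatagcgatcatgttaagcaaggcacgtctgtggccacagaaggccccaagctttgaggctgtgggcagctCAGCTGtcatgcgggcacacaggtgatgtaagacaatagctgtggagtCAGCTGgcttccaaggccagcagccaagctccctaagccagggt
Chrne (chr11:70619195-70619444, minus strand): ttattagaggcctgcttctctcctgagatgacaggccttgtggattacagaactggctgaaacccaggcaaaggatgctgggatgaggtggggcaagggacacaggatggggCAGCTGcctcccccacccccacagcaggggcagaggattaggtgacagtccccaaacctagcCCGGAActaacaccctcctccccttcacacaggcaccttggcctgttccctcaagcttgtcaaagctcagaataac
Chrng (chr1:87205561-87205810, plus strand): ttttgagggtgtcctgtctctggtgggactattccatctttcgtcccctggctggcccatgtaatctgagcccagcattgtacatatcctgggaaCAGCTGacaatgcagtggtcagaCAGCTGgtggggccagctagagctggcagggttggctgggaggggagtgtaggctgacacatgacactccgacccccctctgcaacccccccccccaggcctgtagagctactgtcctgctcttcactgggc
CAGCTG was found at 2 places in Chrna1 (92 and 44 bases before the start), at 2 in Chrng (155 and 132), at 1 in Chrne (138) and at 0 in Chrnb1. The N-box was found in Chrne (76 bases before the start) on the opposite strand, and in no other of the 8 promoters. Of 32851 promoter windows of this length 13% held CAGCTG and 12% the N-box. The general E-box CANNTG, which takes in CAGCTG and was held by 66.2% of windows, was found at 3 places each in Chrnb1 (119, 96 and 29 bases before the start), Chrna1 and Chrng, and at 1 in Chrne. It was found in 7 of the 8 promoters. Among the neuronal members Chrnb4 held CAGCTG at 14 bases before the start. The YY1 core AANATGG, present in 12.4% of windows, was found on either strand in Chrng alone of the 8, at 217 bases before the start. A match is a description of letters and not a shown site.

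Many of the subunit probe sets were brightest in control replicate 1. That array was the highest of the 6 for 7 of the 13 probe sets, namely Chrna1, Chrnb2, Chrnb4, Chrnd, 1 of the 2 for Chrna4 and 2 of the 3 for Chrng. Of these Chrnb2, Chrnd and Chrna4 lay above the lower quartile on every array. The same array was the highest for 33.5% of the 2520 dim genes of the whole table, those below the 25th percentile of mean level, and for 20.3% of the brighter genes. The median dim gene lay 0.065 above its mean in the other 5 arrays there, on the log2 scale. Chrna2 and Chrnb1 did not share this, since control replicate 1 was not above the YY1bKO arrays for either. The heat map of centred values shows both patterns.

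**Figure D5:**
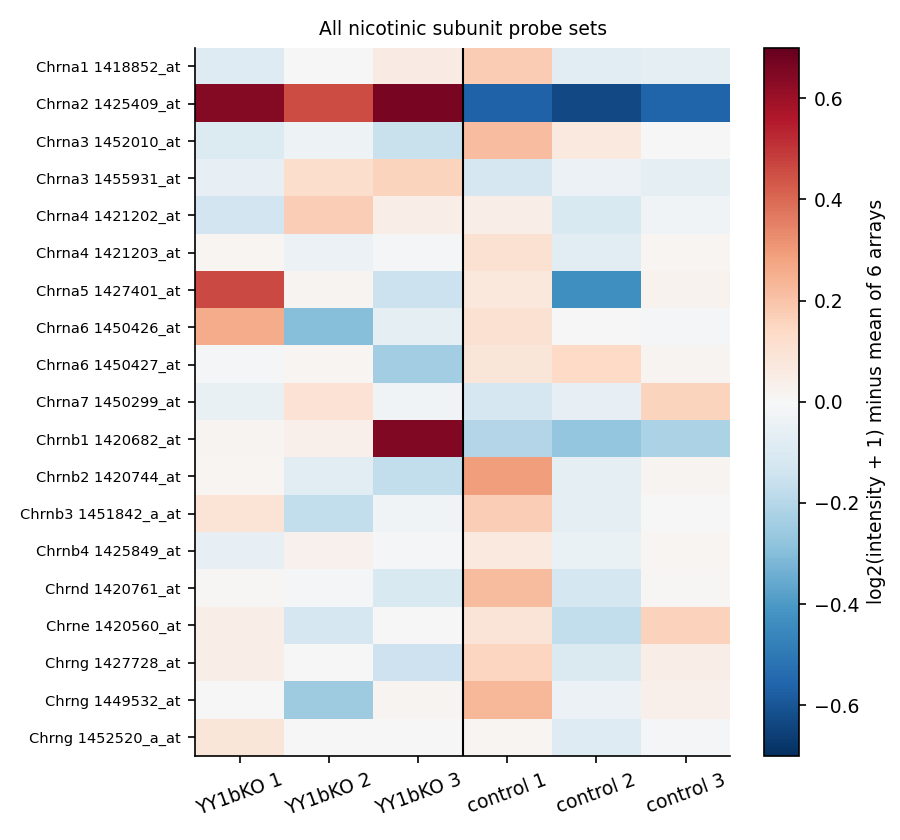
log2(intensity + 1) minus the mean of the 6 arrays (colour scale) for the 13 member probe sets and 6 probe sets of other nicotinic subunits, in YY1bKO replicates 1 to 3 (left) and control replicates 1 to 3 (right). Chrna2 is above its mean in all YY1bKO arrays and below it in all controls, Chrnb1 is highest in YY1bKO replicate 3, and 7 of the 13 member probe sets are highest in control replicate 1.

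The remaining nicotinic subunits on the array showed no such step. Chrna3 and Chrna5 neighbour Chrnb4 in a gene cluster. Chrna3, the alpha3 subunit of ganglia, had 29.1, 30.3 and 27.8 in YY1bKO and 36.3, 32.7 and 31.1 in control replicates, a difference of -0.19 (limma adjusted p = 0.576). The groups did not overlap, but its second probe set gave 0.15, the opposite sign. Chrna5 had 32.1, 23.3 and 20.6 in YY1bKO and 24.3, 16.8 and 23.4 in control replicates (0.22, adjusted p = 0.773). Chrna6 had 24.6, 25.1 and 20.8 in YY1bKO and 26.4, 27.4 and 25.2 in control replicates (-0.16, adjusted p = 0.669). Its groups did not overlap either, and its second probe set gave -0.071, the same sign, with overlap. Chrnb3 (-0.070, adjusted p = 0.870) completed the 4 genes of that list. Of the 4 genes 2 were lower without overlap, where 5% of all genes were lower in that way. By limma 0 of the 4 passed, also at an unadjusted p under 0.05.

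The genes that make, release, remove or sense acetylcholine, and those that assemble or modulate its receptors, showed few differences. In 7 lists drawn up around the receptor, 67 genes were measured, among them 18 of calcium and cAMP response and 16 of glycolysis. By limma 0 of the 67 passed an adjusted p of 0.05. Without adjustment p was under 0.05 for 4 higher genes and 1 lower gene (5.97% and 1.49%, against 8.43% and 1.99% of all genes). Of the 4 higher genes 3 were in the glycolysis list and 1 was Ly6h, and the lower gene was Slc5a7. Of 3 muscarinic receptors, the G protein-coupled receptors of acetylcholine, 0 passed at either level, and their intensities lay at 10.4 to 36.7 in YY1bKO and 10.6 to 42.5 in control arrays. Muscarinic Chrm1 had the largest difference of them (-0.19, adjusted p = 0.610).

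Of 9 genes of acetylcholine synthesis, storage and breakdown, Slc5a7 had the smallest p. It encodes the choline transporter of cholinergic nerve endings. Its intensities were 26.2, 26.0 and 31.3 in YY1bKO and 57.1, 34.4 and 34.7 in control replicates, lower in all 3 YY1bKO arrays and highest in control replicate 1. The log2 difference of -0.54 ± 0.22 (SE) did not pass (limma adjusted p = 0.462). Ache, acetylcholinesterase, had 28, 24 and 26.7 in YY1bKO and 25, 23.3 and 25.3 in control replicates (0.091, adjusted p = 0.796). Bche, the butyrylcholinesterase, had 116.9, 95.2 and 118.5 in YY1bKO and 146.2, 87.9 and 62.8 in control replicates, with overlap. Chat, the enzyme that makes acetylcholine, was not analysed here. The median of the list was -0.078.

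Of 8 genes that assemble or modulate nicotinic receptors, Ly6h had the smallest p. It encodes a membrane-anchored Ly6 protein known to bind neuronal nicotinic receptors and hold down their surface level. Its intensities were 181.6, 123.6 and 181.4 in YY1bKO and 119.1, 52.9 and 87.5 in control replicates, without overlap. The difference of 0.95 ± 0.32 (SE) did not pass (limma adjusted p = 0.392). Lynx1, a related modulator, had a difference of 0.0089 (adjusted p = 0.992), and Tmem35a, the chaperone also called NACHO, -0.041 (adjusted p = 0.934). Lypd3 had 11.3, 11.2 and 11.2 in YY1bKO and 12.7, 193.3 and 13.0 in control replicates. Its single high value was in control replicate 2, the array rich in epithelial transcripts, as was that of Erbb3, the neuregulin receptor, with 744.8 against 65.2 to 104.8 in the other 5 arrays. The second probe set of Erbb3 gave a difference of -0.022, against -0.84 for the first.

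Neuromuscular junction organisers gave 0 of 9 past an adjusted or an unadjusted p of 0.05 by limma, with a median of -0.033. Musk, the kinase that starts receptor clustering, and Rapsn, the scaffold that holds the receptor in place, had differences of -0.033 and -0.035 (adjusted p = 0.952 and 0.943). Of 18 genes of calcium and cAMP response, 0 passed at either level, with a median of -0.037. Ppp3cb, a calcineurin catalytic subunit (0.22), and Prkaca, the catalytic subunit of protein kinase A (0.28), had the smallest p of that list (adjusted p = 0.542 and 0.672). Of the 7 lists, that of glycolysis, which holds glycolytic enzymes and the ETS factor Gabpa (0.12), had the most estimates above 0, in 13 of 16, with a median of 0.16. Ldhb (0.65), Pfkl (0.56) and Pkm (0.31) had an unadjusted p under 0.05, as had 8.43% of all genes in that direction. When adjusted, 0 passed (0.324, 0.427 and 0.468 by limma). Pgam2 and Eno3 of this list are also in the skeletal muscle list. Their excess in YY1bKO replicate 1 over the mean of YY1bKO replicates 2 and 3 was 0.86 and 0.61, with a median of 0.014 for the glycolysis list. The part of muscle content in these estimates was not tested.

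Most nerve markers were dim. Of 16 sympathetic and neuronal genes, 10 lay below the lower quartile on every array, and their summed intensity was 448.0 to 460.8 in YY1bKO and 428.8 to 474.0 in control arrays. Th, the first enzyme of noradrenaline synthesis, had 22, 22 and 19.4 in YY1bKO and 24.2, 22.5 and 21.9 in control replicates. None of the list's genes was listed at 0. Uchl1, a ubiquitin hydrolase abundant in neurons, had the smallest p of that list, with 31.4, 26.0 and 32.7 in YY1bKO and 18.2, 17.9 and 19.0 in control replicates. Its difference of 0.67 ± 0.11 (SE) did not pass (limma adjusted p = 0.147).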

How the data were processed

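Total RNA of subcutaneous white fat from 3 YY1bKO and 3 control samples was hybridised to Affymetrix mouse arrays. Each deposited value is the intensity of a probe set, made by the authors with RMA, per the submitters' processing notes (its version is not given here). The values ran on a linear scale, as read from the values themselves. RMA makes the distributions of the arrays alike, so a change in the whole amount of RNA of a cell is not seen in them. Scanner files and detection calls were not used here, and the lower quartile of each array served as a mark of dimness.

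Of 22690 probe sets, 64 array controls were left out, 20393 had 1 gene symbol in GEO's platform annotation, 691 had several and 1606 had none, and those with several or none were not named. Symbols were checked by gene identifier against RefSeq (20364 matched and 0 changed). Of the genes, 4956 had more than 1 probe set, and each was represented by the probe set with the highest mean over all arrays, which left 12393 genes. Log2(intensity + 1) over all 6 arrays, with no covariate, was fitted by lmFit and eBayes of limma 3.58.1, run in R 4.3.3, and p-values were adjusted by Benjamini-Hochberg over all genes. The fit was tested on simulated data. The number of arrays limits the precision.

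The members and lists were chosen with earlier results of these data known. The genes named are all probe sets of the 10 subunits, up to 4 genes with the smallest unadjusted p from each list, the 5 genes nearest to Chrna2, and Ucp1, Acta1 and Yy1. Genes named for position, for a marker role, as a modulator of the receptor or for muscle content were chosen after their values were seen. Alternatives were other pseudocounts, quantile normalization, subtraction of array medians, a filter on dim probe sets, the mean of probe sets, a trended robust variance, array weights, each replicate left out, and a block for the replicate number.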

Additional observations from a re-analysis of the deposited data

How the results depend on the processing

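Of the 17 alternatives, 2 were chosen after seeing the data. These were leaving out YY1bKO replicate 1 and control replicate 2 together, and subtracting from each array the median of its dim probe sets. The Chrna2 difference (1.17) was positive in 17 of 17, but nothing is read from this count. Chrna2 was chosen for the difference, and its groups did not overlap. Its estimate could not change under the filter on dim probe sets, the mean of probe sets, the trended robust variance or the replicate block. The difference was 0.83 with a pseudocount of 16, which by construction shrinks differences of dim probe sets, and 1.14 to 1.24 with 1 replicate left out. The muscle subunits' median (-0.052) was -0.17 without YY1bKO replicate 1 and control replicate 2 together, and -0.15 to 0.021 with 1 replicate left out, above 0 without control replicate 1. The cause was not tested. The median of the neuronal subunits other than Chrna2 (-0.027) ran from -0.063 to 0.021. The count of genes past an adjusted p of 0.05 by limma (4) was 9 with a pseudocount of 16, 10 with a trended robust variance, 9 with array weights and 13 with the medians of dim probe sets subtracted. It was 1 without YY1bKO replicate 1 and control replicate 2 together, and 1 to 5 with 1 replicate left out. Without YY1bKO replicate 1, 2 or 3 it was 1 each time, and that gene was Ucp1. With the replicate number as a block it was 1, and the Chrna2 estimate, which such a block cannot change, was 1.17. Arrays of the same number had correlations of their deviations of 0.61, 0.097 and 0.031, not all above 0.1, so the numbers were not taken as pairs, and of the YY1bKO arrays replicate 1 alone correlated best with its own number. The count of pathway genes past an adjusted p of 0.05 was 0 in all 17. The filter on dim probe sets kept 7 of the 10 members and left out Chrna1, Chrng and Chrnb4. Chrna2 was kept only through its YY1bKO arrays. Its control mean was 4.62 on the log2 scale, below that of Chrnb4 (4.97), so the filtered run is no support for its difference. Chrnb1 ran from 0.26 to 0.58, and what the dimmest probe sets could show is limited by their closeness to the background of the array.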

Other observations

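The genes nearest to Chrnb1 in pattern, sought after its values were seen, were Eef2k (root mean square distance 0.051 over 6 arrays), the kinase of elongation factor 2, Tagln (0.059), the smooth muscle protein transgelin, Dctn3 (0.071), a dynactin subunit, Sra1 (0.088), a steroid receptor RNA activator, and Grk4 (0.091), a G protein-coupled receptor kinase. Eef2k had log2 values of 7.32, 7.24 and 7.82 in YY1bKO replicates 1 to 3, against 7.02, 7.04 and 7.02 in control replicates 1 to 3. Like Chrnb1, it was highest in YY1bKO replicate 3. The differences of the 5 genes lay between 0.40 (Grk4) and 0.46 (Sra1). They were picked for this pattern, so no test of them is given.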
